A study of Mus musculus with 13 samples.

Results

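The regions described here are 1102 strong binding peaks that were called with both V5-tagged Fezf2 libraries in N2A cells, a mouse neuroblastoma line. A member is a peak of the library titled CAG-Fezf2-A-V5 with a fold enrichment of 10 or more that overlaps, by at least 1 bp, a peak of the library titled CAG-Fezf2-E-V5 with a fold enrichment of 10 or more. The 1102 members were 6.05% of the 18216 Fezf2-A-V5 peaks. Their partners with a fold enrichment of 10 or more were 1103 of the 21338 Fezf2-E-V5 peaks, out of 39554 peaks in both lists. The members were chosen by their fold enrichments, so these are given as a description with no test. There was 1 library for each construct, so no value has a replicate error.

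Fezf2 is a transcription factor with zinc fingers that acts in the forebrain as it forms. It is known for its part in specifying the deep-layer neurons of the neocortex that project to the brainstem and spinal cord, and its protein carries a motif that recruits corepressors of the Groucho family. Chromatin immunoprecipitation followed by sequencing (ChIP-seq) recovers DNA fragments bound to a protein, and fragments pile up into a peak whose summit lies near the bound site.

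The cells were transfected with plasmids for V5-tagged Fezf2 or for the V5 tag alone, fixed 48 h later, and the antibody was against V5. The CAG promoter in the sample titles is a strong and broadly active one, so the protein was supplied from a plasmid in a cell line and not by the cells' own gene. The labels give both Fezf2 libraries the same genotype, and the sources used here do not say how A differs from E. The control of the Fezf2-E-V5 list is titled CAG-V5, whereas its description and the list's header call it an input, so what was sequenced as control is not settled by the labels. Both lists are in mm9 coordinates. The members were not assigned to genes, and their sequence is not shown, because no mm9 annotation or genome was used here.

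Of the Fezf2-A-V5 peaks, 3675 (20.2%) reached a fold enrichment of 10, and of the Fezf2-E-V5 peaks, 2355 (11.0%) did. The strong Fezf2-A-V5 peaks fell into 3 classes: 1102 (30.0%) with a strong partner, 1860 (50.6%) with a partner of less than 10, and 713 (19.4%) that overlapped no Fezf2-E-V5 peak. The strong Fezf2-E-V5 peaks held 1103 (46.8%) with a strong partner, 776 (33.0%) with a weaker one and 476 (20.2%) with none. Of peaks of any strength, 11139 of 18216 with Fezf2-A-V5 (61.1%) overlapped a Fezf2-E-V5 peak. Conversely, 11315 of 21338 Fezf2-E-V5 peaks (53.0%) overlapped a Fezf2-A-V5 peak, so strong peaks lacked a partner less often than all peaks. A weaker partner was often close to the limit. The Fezf2-E-V5 partner of the 1860 strong Fezf2-A-V5 peaks had a median fold enrichment of 7.71, and 772 of them (41.5%) lay between 8 and 10. In the other direction the median was 8.22, with 404 of 776 (52.1%) between 8 and 10.

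**Figure D1:**
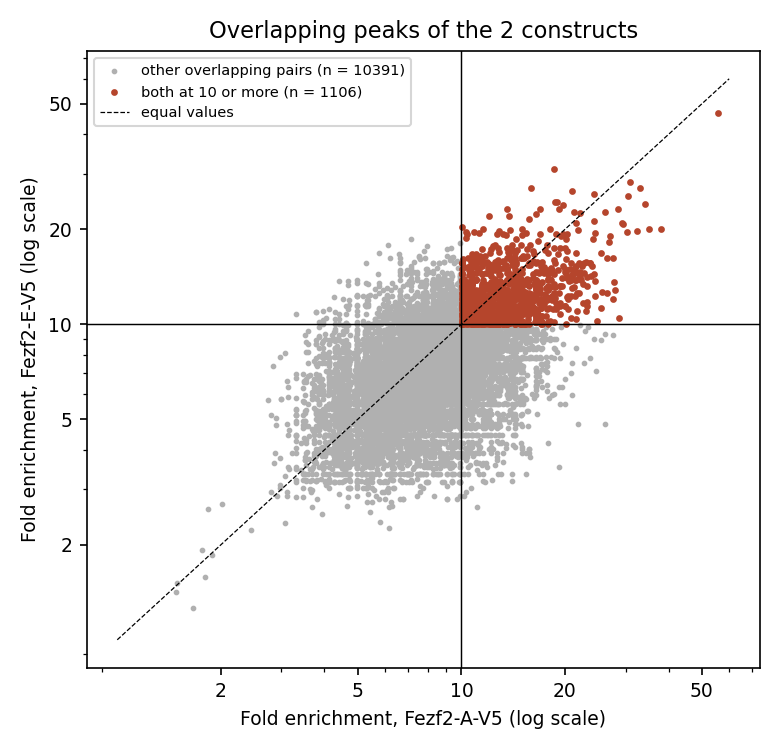
Fold enrichment of overlapping peaks in the Fezf2-A-V5 list (horizontal) and the Fezf2-E-V5 list (vertical), both on log scales, 1 point per overlapping pair. The 1106 red pairs, which hold the 1102 members, lie above both limits of 10, and the 10391 grey pairs crowd up to those limits with no gap.

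Members had a median fold enrichment of 12.9 in the Fezf2-A-V5 list, with a range of 10.0 to 55.7, and of 11.995 in the Fezf2-E-V5 list, with a range of 10.0 to 46.6. Most members were only moderately above the limit. By the lower of the 2 values, 462 members (41.9%) lay from 10 to under 11, 241 from 11 to under 12, 310 from 12 to under 15, 72 from 15 to under 20, and 17 (1.54%) at 20 or more. The values of a member in the 2 lists were mostly alike in size: 979 members (88.8%) differed by no more than 1.5 times, 100 were higher with Fezf2-A-V5 by more than that, and 23 were higher with Fezf2-E-V5. The rule holds both values at 10 or more and most members lie near that limit, so this likeness is partly set by it. The middle range (quartiles) of the ratio of Fezf2-A-V5 to Fezf2-E-V5 was 0.93 to 1.26 in members. It was 0.89 to 1.455 in the other overlapping pairs.

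The member with the highest value in both lists lay at chr5:123220850-123221506, on mm9 as are all positions here. Its fold enrichment was 55.7 with Fezf2-A-V5 and 46.6 with Fezf2-E-V5, it ranked 1 in each list, and 83 fragments piled up at its summit in each library. The counting error of 83 fragments alone gives 95% intervals of 44.3 to 69.0 and 37.1 to 57.8 (exact Poisson, background taken as fixed). No other member passed 40 in either list. The summits of this peak were 22 bp apart.

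The next strongest member by the lower value was chr13:52113229-52113714, with a fold enrichment of 31.0 for Fezf2-A-V5 and 28.3 for Fezf2-E-V5, pileups of 75 and 76 fragments, and summits 12 bp apart. It was followed by chr7:148111746-148112238 at 32.9 and 27.0, chr4:115820895-115821385 at 30.4 and 25.6, and chr2:77887280-77887914 at 24.4 and 25.8, each in the same order of lists. These 3 differed in height more than in enrichment, since chr4:115820895-115821385 stood on 68 and 65 fragments and chr2:77887280-77887914 on 34 and 43.

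The peak at chr9:60660831-60661636 had 34.2 and 24.1 with summits 2 bp apart, and chr12:8980253-8980883 had 28.4 and 23.3. The closest summits among the strongest members were at chr13:117494403-117494873, 1 bp apart, where the fold enrichments were 26.2 and 22.7. Both chr9:109914243-109914733, at 22.1 and 22.6, and chr10:80140663-80141156, at 21.3 and 22.7, were slightly higher with Fezf2-E-V5. The remaining members of the 15 strongest were chr1:52411196-52411573, chr6:121165048-121165692, chr13:45671617-45672059, chr9:71745301-71745646 and chr11:120971303-120971697, with lower values of 21.2, 21.0, 21.0, 20.9 and 20.8. All summits of these 15 members lay within 43 bp of each other in the 2 lists.

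**Figure D2:**
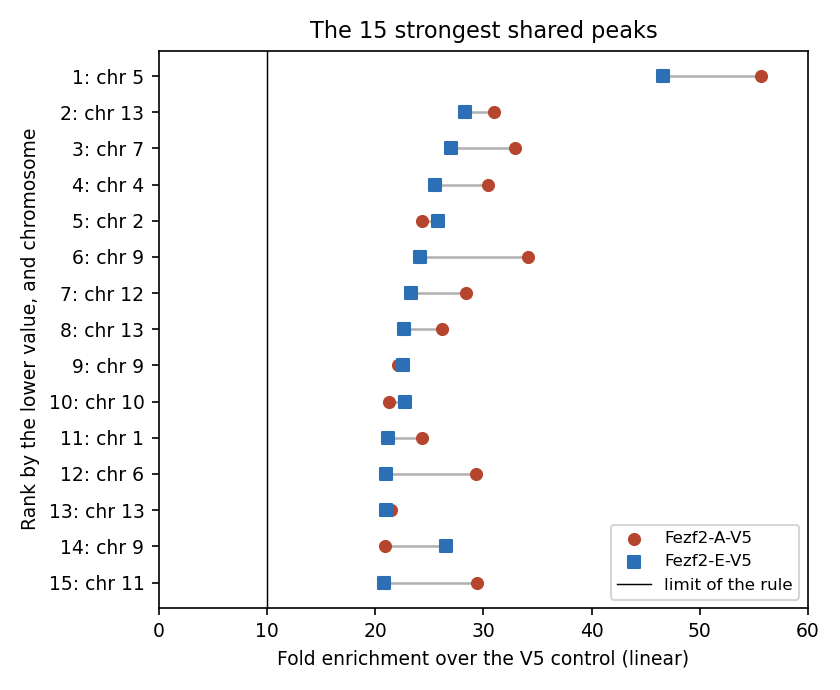
Fold enrichment over the control (horizontal, linear) of the 15 members with the highest lower value, ranked from top to bottom and named by chromosome; circles are Fezf2-A-V5, squares Fezf2-E-V5 and the vertical line is the limit of 10. The peak on chromosome 5 stands apart at 55.7 and 46.6, and the lower value of the other 14 runs from 28.3 to 20.8.

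Values just inside and just outside the limit were almost the same. The member nearest to it, chr5:92546879-92547282, had 10.7 with Fezf2-A-V5 and 10.01 with Fezf2-E-V5, chr2:70654750-70655216 had 10.1 and 10.02, and chr13:18067902-18068170 had 10.02 and 10.7. The pair at chr1:137583712-137584255 had 9.98 and 11.3, and that at chr8:109638219-109638557 had 9.98 and 10.3, so neither is a member. Another pair outside, chr7:54090651-54090930, had 22.2 with Fezf2-A-V5, more than most members, and 9.97 with Fezf2-E-V5. At the lowest background of each list, a fold enrichment of 10 took 14 fragments with Fezf2-A-V5 and 17 with Fezf2-E-V5. Exact Poisson intervals at those counts run from 5.48 to 16.8 and from 5.94 to 16.3 on the fold scale.

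Counting error therefore covers the limit for most members. The 95% Poisson interval lay wholly at or above 10 in 302 members (27.4%) with Fezf2-A-V5, in 205 (18.6%) with Fezf2-E-V5 and in 104 (9.44%) with both. Conversely, the upper bound reached 10 for the weaker Fezf2-E-V5 partner of 1438 of the 1860 strong Fezf2-A-V5 peaks (77.3%), and for the weaker Fezf2-A-V5 partner of 676 of 776 strong Fezf2-E-V5 peaks (87.1%). At this depth the weaker value of these pairs cannot be told from the limit of 10 by its counts. The intervals cover the counting error of the pileup only, with the background taken as fixed, and reads are not independent molecules. Above its lowest value the background tended to rest on few control reads, so intervals that include its error would be wider.

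Some members were far stronger in one list. The ratio of the Fezf2-A-V5 to the Fezf2-E-V5 fold enrichment had a median of 1.07 and ran from 0.49 to 2.74. It was largest at chr6:36767273-36767809, with 28.8 against 10.5, from 87 and 47 fragments at summits 3 bp apart. At chr16:92414018-92415457, a peak 1440 bp wide, the fold enrichments were 24.8 and 10.3 although the pileups were 45 and 46 fragments. The background there was 1.82 fragments in the Fezf2-A-V5 list and 4.48 in the Fezf2-E-V5 list, so the backgrounds differed more than the pileups. The third, chr6:97819848-97820257, had 27.6 and 12.03 from 49 and 26 fragments.

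In the other direction chr13:23712564-23712868 had 10.0 with Fezf2-A-V5 and 20.4 with Fezf2-E-V5, from 14 and 34 fragments, at summits 4 bp apart. The peak at chr1:40904480-40904827 had 10.3 and 19.7, and chr5:139616595-139616954 had 10.4 and 19.3. Among strong peaks that are no members, chosen after their values were seen, the Fezf2-A-V5 peak at chr2:64485333-64485718 reached 27.6 over a Fezf2-E-V5 partner of 9.25, and the one at chr8:52894874-52895161 reached 26.5 with no partner. The strongest Fezf2-E-V5 peak with no partner, chr3:9558780-9559075, reached 19.0.

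The 2 libraries appeared to differ in depth, which bears on the scale of these values. The header of the Fezf2-E-V5 list gives 21959213 tags after filtering and 24520589 in the control. In both lists, pileup divided by fold enrichment gave the background that the peak caller had used, and above its lowest value this background tended to fall on whole control tags times a scale factor. That factor was 0.896 for Fezf2-E-V5, which returns about 22000000 tags, as in the header, and 0.605 for Fezf2-A-V5, which implies about 14800000 tags. The latter number assumes the same control for the Fezf2-A-V5 list, whose parameter lines are not given in the sources used here. Of the backgrounds above the lowest value, 49.9% and 50.4% lay on this scale to within 0.1%. The lowest background was 1.67 fragments with Fezf2-E-V5, the genome-wide mean that its header implies, and 1.40 with Fezf2-A-V5.

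Pileups of members had medians of 23 fragments with Fezf2-A-V5 (range 14 to 118) and 26 with Fezf2-E-V5 (range 17 to 105). The raw pileup was higher with Fezf2-E-V5 in 674 members (61.2%) and lower in 361. Per 1000000 tags, by the tag numbers implied above, the medians were 1.55 and 1.18 fragments, and Fezf2-A-V5 was higher in 996 members (90.4%). The fragment size used also bears on a pileup. It was 142 bp for Fezf2-E-V5 by its header, and the depth and lowest background above imply 176 bp for Fezf2-A-V5. A difference in level between the 2 libraries thus cannot be told apart from these settings. The background was at its lowest value in 284 members (25.8%) with Fezf2-A-V5, in 221 (20.1%) with Fezf2-E-V5 and in 193 with both, against 13.1% and 9.90% of all peaks of each list. This share is partly set by the rule, since a low background raises the fold.

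**Figure D3:**
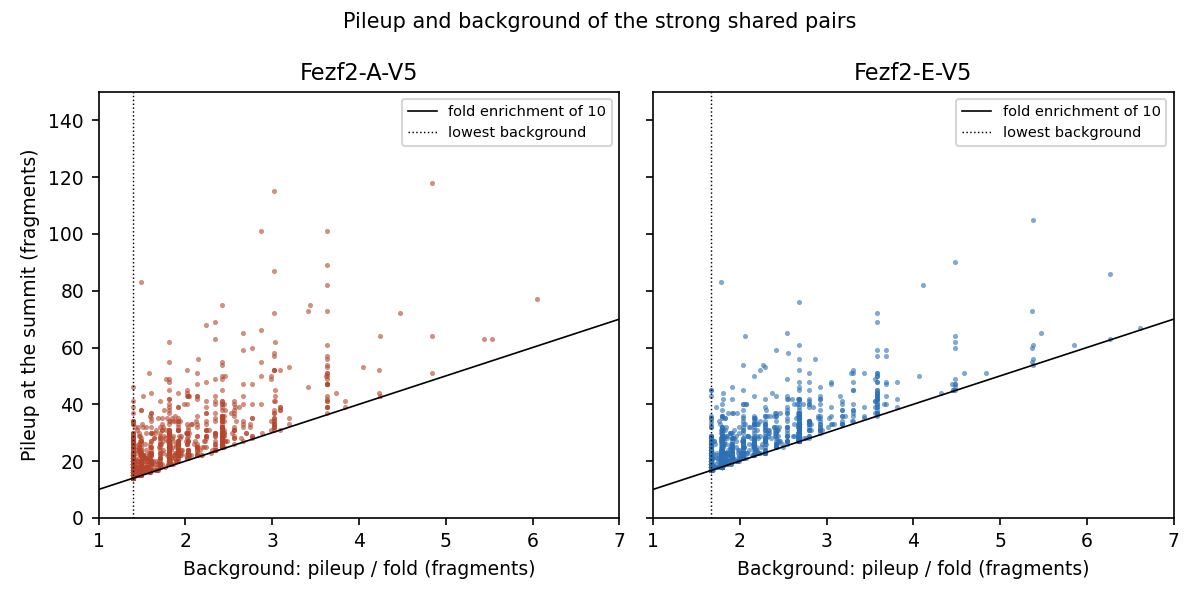
Pileup at the summit (vertical, fragments) against the background implied by pileup divided by fold enrichment (horizontal, fragments) for the 1106 strong shared pairs in each list. The solid line is a fold enrichment of 10, and the dotted line is the lowest background, 1.40 fragments with Fezf2-A-V5 and 1.67 with Fezf2-E-V5, where the points form a column starting at 14 and 17 fragments.

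Positions of the summits were not used by the rule, although they come from the same libraries. In members the summits of the 2 lists lay a median of 39 bp apart, with a middle range of 18 to 74 bp and a maximum of 755 bp. They were within 50 bp in 667 members (60.5%) and within 100 bp in 937 (85.0%), and they were at the same base in 7. In the 10391 other overlapping pairs the median was 64 bp, with 41.3% within 50 bp and 66.3% within 100 bp. The 2 sets were not formed alike: each member counted once, with the strong partner of nearest summit. The other pairs kept every pair, also those of a member with a weaker peak. Of the members, 35 (3.18%) overlapped more than 1 Fezf2-E-V5 peak of any strength. The distance was shorter where the peaks were stronger. Its median was 73 bp in pairs with a lower value under 6, 62 bp from 6 to 8, 50 bp from 8 to 10, 42 bp from 10 to 12, 38 bp from 12 to 15, 28.5 bp in 72 pairs from 15 to 20 and 22 bp in 17 pairs above 20. There was no side to the offset: the Fezf2-A-V5 summit had the lower coordinate in 557 members and the higher in 538, and the median signed offset was -1 bp. Both summits lay inside the other list's peak in 1060 members (96.2%). The rule asked for overlap, and this share was not computed for the other pairs. These are descriptions of 1 library each, and no test was made over peaks.

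**Figure D4:**
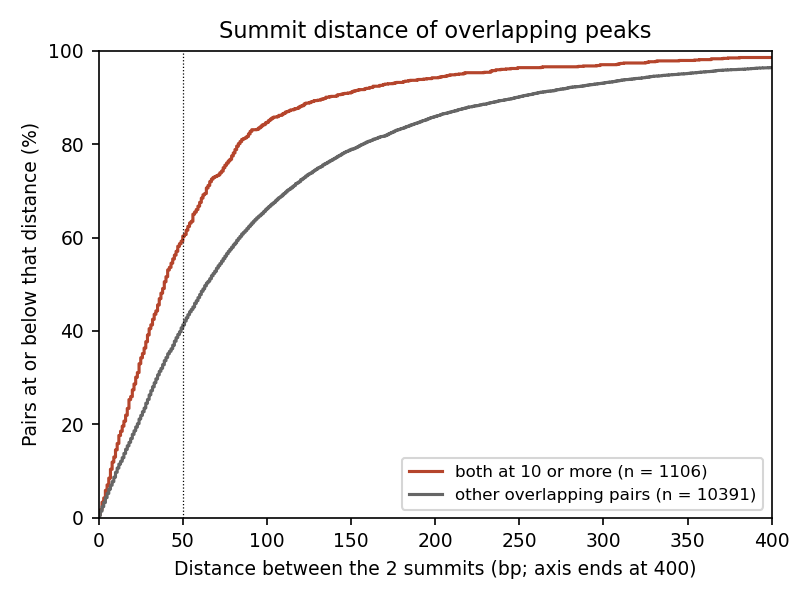
Share of overlapping pairs (vertical, %) whose summits in the 2 lists lie at or below a given distance (horizontal, bp), for pairs with both fold enrichments at 10 or more and for the other pairs; the dotted line is at 50 bp. The upper curve, of the strong shared pairs, stays above the other over the plotted range.

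A few members had summits far apart. The largest distance, 755 bp, was at chr7:106416047-106416701, where a Fezf2-A-V5 peak of 655 bp lay within a Fezf2-E-V5 peak of 1118 bp. At chr11:68886279-68887132 the summits were 676 bp apart and at chr9:85642148-85642709 they were 611 bp apart. Of the split peaks, 2 are named here, chosen after their values were seen. In 4 cases 1 member overlapped 2 strong Fezf2-E-V5 peaks, as at chr6:94350496-94351533, 1038 bp wide, which overlapped Fezf2-E-V5 peaks of 11.2 and 10.2. In 3 cases 1 Fezf2-E-V5 peak overlapped 2 members, as at chr8:73222751-73224237, a Fezf2-E-V5 peak of 1487 bp and 19.3 that spanned members of 12.7 and 13.2. One list thus called as a single region what the other split.

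Members had a median width of 401.5 bp in the Fezf2-A-V5 list, against 378.5 bp in strong peaks with a weaker partner, 267 bp in strong peaks with none and 281 bp in all peaks of the list. The same order held in the Fezf2-E-V5 list, where the medians were 357, 335.5, 223 and 232 bp. Median pileups were 23, 22 and 17 fragments in the first 3 classes of the Fezf2-A-V5 list, and the part of peak height in the widths was not tested. A wide peak also has more room to overlap another, so the rule bears on width. Widths are not comparable between the lists, because the narrowest peak was 176 bp in one and 142 bp, the fragment size, in the other. The widest members were chr6:72388654-72390590 at 1937 bp, chr15:54943695-54945314 at 1620 bp and chr15:103069687-103071240 at 1554 bp. Their fold enrichments with Fezf2-A-V5 were 12.9, 19.2 and 16.6. Members at chr2:153423512-153423687, chr7:123275805-123275980 and chr9:27064154-27064329 were 176 bp wide, and each had a fold enrichment of 10.7 from 15 fragments with Fezf2-A-V5.

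Members lay on all 19 autosomes and the X chromosome, with 118 on chromosome 2, 87 on chromosome 11 and 15 on the X. As a share of all Fezf2-A-V5 peaks of a chromosome, they ranged from 4.31% on chromosome 15, 4.49% on chromosome 10 and 4.54% on chromosome 8 to 7.60% on chromosome 17, 7.79% on chromosome 19 and 9.17% on chromosome 18. The chromosomes with the smallest shares had a higher background. The median background over all Fezf2-A-V5 peaks was 2.51, 2.66 and 2.88 fragments on chromosomes 15, 10 and 8, and 1.82, 1.92 and 1.82 on chromosomes 17, 19 and 18. Among the chromosomes that departed from this pattern were chromosome 4, with 4.88% at a background of 1.92, chromosome 14, with 6.24% at 1.70, and the X, with 6.70% at 1.40. Over the 20 chromosomes Spearman's rho of the share and the background was -0.70 and Pearson's r was -0.63. This is a description of points that share 1 library and 1 control, and the fold enrichment is itself divided by the background. As a share of the strong Fezf2-A-V5 peaks alone, the order changed in part. Members were 34.7% on chromosome 10 and 33.8% on chromosome 8, above the 30.0% over all chromosomes and the 31.1% on chromosome 17. Chromosomes 19 and 18 stayed high, at 37.2% and 36.9%, and chromosome 15 stayed low, at 23.4%, while the X had 19.2%. The part of the background in the shares was not tested, and chromosome copy number in these cells was not analysed here.

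**Figure D5:**
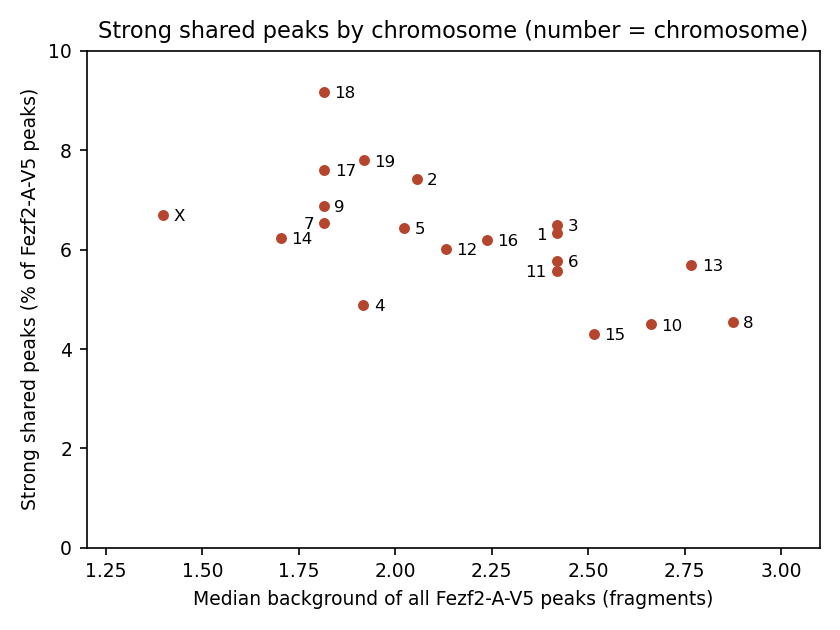
Members as a share of all Fezf2-A-V5 peaks of a chromosome (vertical, %) against the median background of those peaks (horizontal, fragments), 1 point per chromosome with its number beside it. Chromosomes 15, 10 and 8 lie low at backgrounds of 2.51 to 2.88, while chromosome 18 is highest at 9.17%.

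Few members had another member close by. One lay within 10 kb of 81 members (7.35%) and within 100 kb of 277 (25.1%), and the median distance to the nearest member was 345244 bp. Joined where successive summits were within 10 kb, the members formed 1021 single regions, 36 pairs and 3 groups of 3. Fezf2-A-V5 peaks of any strength include the members, so the nearest of them can only be as close or closer. Another such peak lay within 10 kb of 501 members (45.5%) and within 100 kb of 996 (90.4%). For the 2573 other strong Fezf2-A-V5 peaks the counts were 1099 (42.7%) and 2290 (89.0%).

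The groups named next were chosen after their values were seen. On chromosome 2 the members chr2:59960312-59960650, chr2:59963496-59964003 and chr2:59964870-59965488 had fold enrichments of 12.2, 13.2 and 14.3 with Fezf2-A-V5 and 13.6, 10.6 and 13.4 with Fezf2-E-V5. The densest 1 Mb window, on chromosome 3, held 7 members between chr3:84011251-84011579 and chr3:84411094-84411401. Its strongest, chr3:84011251-84011579, had 21.5 and 15.3. The member chr3:84032852-84033462 had 17.7 and 13.0, and the other 5 had lower values of 10.2 to 11.5. None of the 15 strongest members lay in these groups.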

How the data were processed

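The authors deposited a peak list for each Fezf2 library of N2A cells. The labels give reads of 75 bp, whereas the header of the Fezf2-E-V5 list gives a tag size of 105 bp, and this difference is not settled here. Per the file headers, the Fezf2-E-V5 list came from MACS 2.0.9 on mm9, with a q limit of 0.01 and at most 2 tags per position kept. The submitters' processing notes also name Bowtie 0.12.5, and the parameter lines of the Fezf2-A-V5 list are not given in the sources used here. The pileup signal, the fold enrichment ratio and the −log10 p and q of each peak are the authors' values, and 2 columns of the Fezf2-A-V5 list that had lost their names were read by their place in the other list.

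Computed here were overlaps (Python 3.11.15, pandas 2.3.3; the 11497 overlapping pairs were checked against bedtools 2.31.1 and on simulated data), backgrounds (pileup divided by fold; at the lowest value within 1%), tag numbers implied by their scale, summit distances and exact Poisson intervals. Where a member overlapped several strong partners, that with the nearest summit was used. Named regions are the 15 members of highest lower fold, the 3 at each extreme of the limit, ratio, width and summit distance, and none on chromosome 18. Split peaks, groups, strong peaks that are no members and the tallest pileups were named after their values were seen. The members, lists and rules were chosen with earlier results of these data known. RNA counts of the series were not used, since the peaks were not joined to genes.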

Additional observations from a re-analysis of the deposited data

How the results depend on the processing

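The number of strong shared peaks depended on the fold limit: 2909 at 8 or more in both lists, 400 at 12, 89 at 15 and 17 at 20, against 1102 at 10. It stayed within 1.5 times under 4 other settings: 987 with an overlap of at least 50% of each peak, 937 with summits within 100 bp, 869 with −log10 q of 10 or more in both lists, and 971 with the Fezf2-A-V5 background raised to the lowest Fezf2-E-V5 value, a setting chosen after seeing the data. The median summit distance was 26 bp and the median Fezf2-A-V5 width 455 bp at a limit of 15, which keeps the strongest of the same members, against 39 bp and 401.5 bp at 10, and they were 38 bp and 393 bp with an overlap of 50% of each peak. Planned comparisons of motifs, transcription starts and RNA levels near members were not run, since they need an mm9 genome or annotation, which was not used here. No paired analysis was possible because each construct has 1 library and no result comes from a test. Depth limits single peaks: with 14 fragments at the lowest Fezf2-A-V5 background, counting error spans 5.48 to 16.8 on the fold scale.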

Other observations

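The tallest pileups were not strong peaks. In the Fezf2-A-V5 list 19 peaks had more fragments at the summit than any member, whose maximum was 118, and none of the 19 had a fold enrichment above 6.16. The tallest, at chr14:13176868-13177715 and chr14:13174896-13175320, had 704 fragments each at fold enrichments of 1.65 and 1.67. On chromosome 2, peaks at chr2:98506628-98507484 and chr2:98502402-98503040 had 659 and 641 fragments at 1.65 and 1.64.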
